A study of Mus musculus with 6 samples.

Results

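The genes described are 10 genes of the MHC class I antigen presentation pathway, chosen by symbol from the deposited expression table of 54532 genes. They are the light chain B2m, the heavy chains H2-K1 and H2-D1, the peptide transporter subunits Tap1 and Tap2, the loading factor Tapbp, the immunoproteasome subunits Psmb8, Psmb9 and Psmb10, and the transcriptional regulator Nlrc5. Each symbol matched 1 row of the table, and all 10 passed the filter on low values that left 14807 genes for testing. Values are FPKM, fragments scaled to the length of the gene and the size of the library, and the filter asked for a mean of at least 0.1. The libraries came from neutrophils of mouse bone marrow, 3 from wild-type (WT) and 3 from progranulin knockout (PGRN KO) mice, all labelled C57BL/6J. Every culture was kept for 2 hours, then given Candida albicans for 6 hours, so there is no unstimulated group in the comparison, although the WT titles carry the word control. The multiplicity of infection is given differently in the labels and in the paper, and how many mice went into a culture is not stated, so the p-values measure the spread between these libraries only. The knockout mice were bought from a different supplier than the WT mice, and supplier and genotype cannot be told apart.

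Class I molecules display peptides from inside the cell to CD8 T cells and are carried by nearly all nucleated cells. Proteins are cut by the proteasome, whose catalytic subunits can be exchanged for inducible ones to form the immunoproteasome. The TAP transporter moves the peptides into the endoplasmic reticulum, where tapasin and its partners load them onto a heavy chain paired with beta-2 microglobulin. NLRC5 drives transcription of most of these genes, and interferons induce the pathway, NLRC5 included. Neutrophils carry class I on their surface and are not counted among the professional antigen presenting cells.

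The genotype labels and the cell type were checked first. Grn, which encodes progranulin, had an FPKM of 168.4, 161.3 and 166.1 in WT, and 0.242, 0.206 and 0.747 remained in PGRN KO. The libraries held 17087344 to 18821091 fragments on genes. The summed FPKM of 12 neutrophil markers, among them S100a8, S100a9 and Ly6g, ranged over 72380 to 76940 in WT, and PGRN KO libraries had 73690 to 83700, with 1 gene called higher and 2 lower (a call is an adjusted p under 0.05 from limma). S100a9, S100a8 and Ngp made up most of this sum, with WT means of 31330, 17950 and 14230, so it mainly follows them. The gene called higher was Mmp9 (log2 fold change 0.25), and those called lower were Mmp8 (-0.45) and Csf3r (-0.16). Markers of other cells moved with genotype. The summed FPKM of 5 immature granulocyte genes was 128.7 to 143.8 in WT but 608.7 to 670.4 in PGRN KO, with 5 of 5 called higher. For 7 B and plasma cell genes it was 431.3 to 445.9 and 2167 to 2459, with 5 of 5 tested genes called higher and the B cell marker Ms4a1 under 0.2 FPKM in every library. For 8 class II and dendritic cell genes it was 154.7 to 167.0 and 89.9 to 99.1, with 4 of 5 tested genes called lower and Flt3, Siglech and Cd209a under 0.2 FPKM throughout. For 7 monocyte and macrophage genes it was 495.0 to 502.0 and 530.9 to 675.5, with 1 gene, Ly6c2, called higher and 1, Ccr2, lower. Ly6c2 made up most of this sum, with means of 401.1 in WT and 521.2 in PGRN KO, so the sum mainly follows that gene. Ccr2 had means of 3.82 and 1.73. For 8 T and NK cell genes it was 2.62 to 3.29 and 7.61 to 8.69, with 1 of 2 tested genes, Nkg7, called higher and making up most of the sum, Cd4, Cd8a, Klrb1c and Gzma under 0.2 FPKM throughout, and Cd3e and Cd3g at 0 fragments in all 6 libraries, which allows up to 0.0441 and 0.055 FPKM in a library. Basophil and mast cell, erythroid and platelet markers summed to at most 11.8, 5.33 and 1.47 FPKM in any library, with 3 of 4, 2 of 2 and 1 of 2 tested genes called higher. Most of these cell types carry class I, and their part in the values below was not tested. In bulk RNA, fewer cells of a kind and less RNA per cell cannot be told apart.

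The 10 genes were expressed over a wide range, in the same order of level in both genotypes. B2m was the most abundant, at rank 13 of all genes in WT and 12 in PGRN KO by mean FPKM. H2-D1 and H2-K1 followed, at ranks 48 and 66 in WT and 37 and 47 in PGRN KO. Tapbp stood at rank 170 in WT and 163 in PGRN KO, and the remaining 6 genes lay between rank 854 and rank 2915 in either genotype. The order was B2m, H2-D1, H2-K1, Tapbp, Tap1, Psmb8, Psmb10, Tap2, Psmb9 and Nlrc5. In WT, the neighbours Psmb8 and Psmb10 and the neighbours Psmb9 and Nlrc5 overlapped between libraries. In PGRN KO those pairs were apart, and Tap2 and Psmb9 overlapped instead. Every other pair of neighbours was apart in both genotypes. FPKM divides by the gene length that the authors deposited, so this order depends on those lengths.

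**Figure D1:**
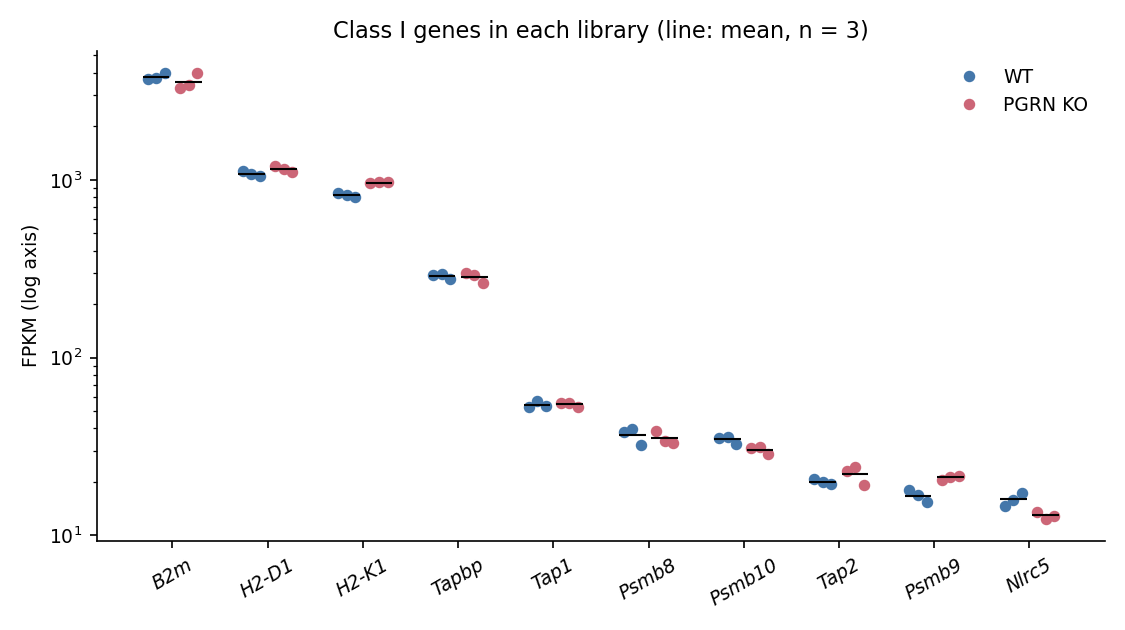
FPKM of the 10 class I genes (log axis) in the 3 WT (blue) and 3 PGRN KO (red) libraries, with a line at each mean. The genes run from B2m, with means of 3792 in WT and 3551 in PGRN KO, to Nlrc5, with 15.97 and 12.97, and the genotypes are apart for H2-K1, Psmb10, Psmb9 and Nlrc5.

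Loss of PGRN was accompanied by small changes of mixed direction in these genes. H2-K1 and Psmb9 were higher and Nlrc5 was lower in PGRN KO neutrophils at an adjusted p under 0.05 from limma, and the other 7 genes did not pass. Among all tested genes, 7.94% were called higher and 9.95% lower. Among the 3482 tested genes whose FPKM averaged 10 or more, as it does for all 10 genes, 13.8% were called higher and 23.6% lower. The libraries of the genotypes did not overlap for 2 genes with higher values (H2-K1 and Psmb9) and 2 with lower values (Nlrc5 and Psmb10), where 18.1% of all tested genes were higher and 19.6% lower without overlap. With 10 genes, these counts are near the background. The log2 fold change was above 0 for 5 genes and below 0 for 5, with a median of -0.0041 beside 0.0026 over all tested genes. The median size of the change, sign aside, was 0.11 on the log2 scale beside 0.18 in tested genes averaging an FPKM of 10 or more.

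Of the class I chains, H2-K1 rose and H2-D1 and B2m did not pass the test. H2-K1 (ENSMUSG00000061232), the K heavy chain, lies at chr17:33996017-34000333 on the minus strand. It had an FPKM of 845.1, 823.7 and 803.5 in WT and of 955.2, 972.6 and 967.3 in PGRN KO. All PGRN KO libraries were above all WT libraries, and the means of 824.1 ± 20.8 and 965.0 ± 8.95 (SD, n = 3 each) differed by 17.1%. The log2 fold change was 0.23 (standard error, SE, 0.039, limma adjusted p = 0.0103). Without WT replicate 2 its size was the same but the adjusted p was 0.0568, and in the other 16 alternatives it kept its call.

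H2-D1 (ENSMUSG00000073411), the D heavy chain, lies at chr17:35262730-35267499 on the plus strand. Its FPKM was 1116, 1072 and 1047 in WT and 1202, 1153 and 1103 in PGRN KO. The lowest PGRN KO library was below the highest WT library, and the log2 fold change was 0.095 (SE 0.049, limma adjusted p = 0.238). This call depended on scaling, since quantile normalization gave 0.23 (adjusted p = 0.00867) and rescaling to plain totals of fragments gave 0.22 (adjusted p = 0.0263).

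B2m (ENSMUSG00000060802), the light chain that pairs with class I heavy chains, lies at chr2:122147686-122153083. It had an FPKM of 3675, 3716 and 3984 in WT and of 3262, 3431 and 3962 in PGRN KO. PGRN KO replicate 6 lay within the WT range, while the other PGRN KO libraries were below it. The log2 fold change was -0.098 (SE 0.081, limma adjusted p = 0.454), and its sign changed with scaling, being 0.13 under quantile normalization and 0.022 with plain totals of fragments.

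H2-K1 and H2-D1 are near copies of each other, and the authors' counting could have split or dropped reads that fit both. Their promoters are alike as well. RefSeq promoter windows on GRCm38.p6, from 250 bases before to 50 after the start site, were found for 8 of the 10 genes, all but Tap2 and Nlrc5. The windows of the 3 class I chains are shown because these genes share a known control region and yet did not all pass the test. H2-K1 is at chr17:34000284-34000583 (minus strand), H2-D1 at chr17:35262844-35263143 (plus strand) and B2m at chr2:122147437-122147736 (plus strand). Capitals mark matches on either strand to the NF-kB consensus, to the interferon regulatory factor element AANNGAAA, to the CRE-like core TGACG and to the CCAAT box.
H2-K1: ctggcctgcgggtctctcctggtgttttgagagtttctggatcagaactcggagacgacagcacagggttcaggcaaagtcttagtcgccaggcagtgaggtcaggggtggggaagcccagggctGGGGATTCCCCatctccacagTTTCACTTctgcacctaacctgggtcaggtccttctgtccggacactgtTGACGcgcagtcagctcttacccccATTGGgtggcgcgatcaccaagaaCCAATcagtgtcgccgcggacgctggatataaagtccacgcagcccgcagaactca
H2-D1: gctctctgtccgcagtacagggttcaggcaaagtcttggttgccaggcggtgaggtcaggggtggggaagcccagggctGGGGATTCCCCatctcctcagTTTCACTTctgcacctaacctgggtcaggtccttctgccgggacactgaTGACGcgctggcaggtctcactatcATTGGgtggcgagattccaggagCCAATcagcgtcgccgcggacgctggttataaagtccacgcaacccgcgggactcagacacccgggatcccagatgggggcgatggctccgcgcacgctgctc
B2m: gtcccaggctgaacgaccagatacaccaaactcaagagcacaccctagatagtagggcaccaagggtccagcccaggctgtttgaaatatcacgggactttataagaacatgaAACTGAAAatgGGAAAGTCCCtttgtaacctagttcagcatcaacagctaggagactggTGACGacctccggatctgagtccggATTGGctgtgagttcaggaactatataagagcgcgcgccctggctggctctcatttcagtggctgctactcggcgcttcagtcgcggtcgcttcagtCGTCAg

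The H2-K1 and H2-D1 windows were identical at 222 of 253 aligned bases (87.7%). Both held an NF-kB match, an AANNGAAA match starting 21 bases after it, and TGACG 49 bases further on, followed by CCAAT on each strand. The NF-kB capitals in these windows are 2 overlapping matches of the consensus. The block starts 125 bases before the start site in H2-K1 and 171 bases before it in H2-D1, because RefSeq places the start sites differently. B2m held all 4 kinds of match, with AANNGAAA 11 bases ahead of the NF-kB match. Of 32851 promoter windows of 300 bases, 4.51% held the NF-kB consensus, 23.9% AANNGAAA, 20.8% TGACG and 37.4% CCAAT. Among the 8 windows of the class I genes, 3 held the NF-kB consensus, 3 AANNGAAA, 5 TGACG and 6 CCAAT. A match describes the letters only.

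The heavy chains were also set against B2m within each library, where a common factor for each library cancels. For these ratios an exact two-sided permutation test over 3 against 3 libraries cannot give a p below 0.10. The ratio of H2-K1 to B2m FPKM was 0.230, 0.222 and 0.202 in WT and 0.293, 0.284 and 0.244 in PGRN KO. The genotypes were apart, by 0.33 on the log2 scale (exact permutation p = 0.10, 0.20 after Benjamini-Hochberg adjustment over 8 ratios). The ratio of H2-D1 to B2m was 0.304, 0.289 and 0.263 in WT and 0.368, 0.336 and 0.279 in PGRN KO, with overlap between the genotypes (difference 0.19 on the log2 scale, exact permutation p = 0.30, adjusted 0.40). The ratio of H2-D1 to H2-K1 was very even in WT, at 1.32, 1.30 and 1.30. It was 1.26, 1.19 and 1.14 in PGRN KO, so each PGRN KO library held relatively more H2-K1 (log2 difference -0.13, exact permutation p = 0.10, adjusted 0.20).

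Peptide transport and loading genes showed no called difference. Tap1 (ENSMUSG00000037321, chr17:34187553-34197225, plus strand), a chain of the peptide transporter, had an FPKM of 52.6, 56.9 and 53.6 in WT and of 55.4, 55.6 and 53.1 in PGRN KO. All PGRN KO libraries lay within the WT range, with a log2 fold change of 0.0089 (SE 0.046, limma adjusted p = 0.921). Tap2 (ENSMUSG00000024339, chr17:34203527-34216321, plus strand), the other transporter chain, had an FPKM of 20.9, 20.0 and 19.4 in WT and of 22.9, 24.4 and 19.3 in PGRN KO. PGRN KO replicates 4 and 5 were above every WT library and replicate 6 was below every WT library. The log2 fold change was 0.13 (SE 0.087, limma adjusted p = 0.362), and without PGRN KO replicate 6 it was 0.22 (adjusted p = 0.0497). The ratio of Tap2 to Tap1 was 0.397, 0.352 and 0.362 in WT and 0.414, 0.439 and 0.363 in PGRN KO, with overlap (difference 0.13 on the log2 scale, exact permutation p = 0.20, adjusted 0.32).

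Tapbp (ENSMUSG00000024308, chr17:33915899-33929288, plus strand) encodes tapasin, which holds the heavy chain at the transporter. Its FPKM was 291.4, 294.5 and 278.4 in WT and 298.4, 293.4 and 263.3 in PGRN KO. The genotypes overlapped, with a log2 fold change of -0.017 (SE 0.058, limma adjusted p = 0.872) whose sign changed under quantile normalization (0.046) and plain totals of fragments (0.10). The deposited gene body of Tapbp shares 3421 bases with Zbtb22 on the same strand, a gene with a mean FPKM of 23.5, so a part of the reads there could belong to either.

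Of the 3 immunoproteasome subunits, Psmb9 rose and the others did not pass the test. Psmb9 (ENSMUSG00000096727), the inducible subunit that replaces Psmb6, lies at chr17:34181988-34187764 on the minus strand. It had an FPKM of 17.9, 16.9 and 15.5 in WT and of 20.5, 21.4 and 21.7 in PGRN KO. All PGRN KO libraries were above all WT libraries, and the means of 16.8 ± 1.22 and 21.2 ± 0.615 (SD, n = 3 each) differed by 26.6%. Psmb9 had the largest log2 fold change of the 10 genes, 0.33 (SE 0.062, limma adjusted p = 0.0146), resting on 3115 fragments in WT and 4327 in PGRN KO. Its log2 fold change was 0.33 without WT replicate 2 (adjusted p = 0.0577) and 0.32 without PGRN KO replicate 5 (adjusted p = 0.0625), and it passed in the other 15 alternatives.

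Psmb8 (ENSMUSG00000024338, chr17:34197721-34201454, plus strand), which replaces Psmb5, had an FPKM of 38.1, 39.5 and 32.4 in WT and of 38.6, 34.2 and 33.2 in PGRN KO. The ranges lay over each other, and the log2 fold change was -0.050 (SE 0.090, limma adjusted p = 0.754), with the sign reversed under plain totals of fragments (0.067). Psmb10 (ENSMUSG00000031897, chr8:105935735-105938444, minus strand), which replaces Psmb7, had an FPKM of 35.5, 35.9 and 32.7 in WT and of 31.0, 31.5 and 28.6 in PGRN KO. All PGRN KO libraries were below all WT libraries by 12.6% on average, and the log2 fold change of -0.19 (SE 0.058) did not pass the threshold (limma adjusted p = 0.0692). It passed when genes averaging an FPKM of 1 or more (adjusted p = 0.0496) or protein-coding genes alone (adjusted p = 0.0409) were tested.

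Each inducible subunit was compared with the constitutive subunit whose place it takes. The ratio of Psmb9 to Psmb6 FPKM was 0.278, 0.280 and 0.278 in WT and 0.353, 0.386 and 0.409 in PGRN KO. This was the widest gap of the 8 ratios, 0.45 on the log2 scale (exact permutation p = 0.10, adjusted 0.20), and all PGRN KO libraries were higher. The ratio of Psmb8 to Psmb5 was 0.389, 0.391 and 0.367 in WT and 0.405, 0.357 and 0.345 in PGRN KO, so that the genotypes overlapped (log2 difference -0.056, exact permutation p = 0.60, adjusted 0.686). Psmb10 to Psmb7 likewise overlapped, at 1.97, 1.97 and 1.85 in WT and 1.90, 2.11 and 1.87 in PGRN KO (log2 difference 0.022, exact permutation p = 0.80, adjusted 0.80). The constitutive Psmb5 and Psmb6 did not pass the test, with log2 fold changes of 0.0047 (limma adjusted p = 0.967) and -0.11 (adjusted p = 0.30). Psmb7 was lower, at -0.20 on the log2 scale (limma adjusted p = 0.0317), a call lost under plain totals of fragments (-0.090, adjusted p = 0.23).

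Psmb9 and Tap1 are read in opposite directions from the same stretch of DNA. Their RefSeq start sites are 226 bases apart, and their promoter windows share 275 of 300 bases. The Psmb9 window, at chr17:34187281-34187580 on the minus strand, is shown because both RefSeq start sites lie in it while Psmb9 alone passed the test. The deposited gene body of Psmb9, on which FPKM rests, starts 434 bases upstream of its RefSeq start site, outside this window. Capitals mark TGACG, here on the opposite strand, and the CCAAT box, also on the opposite strand, and there was no match to the NF-kB consensus or to AANNGAAA in the window.
Psmb9: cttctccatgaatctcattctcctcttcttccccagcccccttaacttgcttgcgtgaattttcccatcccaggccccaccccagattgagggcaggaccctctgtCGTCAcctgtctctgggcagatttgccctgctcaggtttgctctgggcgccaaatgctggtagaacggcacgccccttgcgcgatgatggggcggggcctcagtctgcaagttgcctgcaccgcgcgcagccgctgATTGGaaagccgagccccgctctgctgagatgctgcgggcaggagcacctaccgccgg

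The ratio of Psmb9 to Tap1 FPKM was 0.341, 0.297 and 0.289 in WT and 0.371, 0.386 and 0.409 in PGRN KO. The genotypes were apart, by 0.33 on the log2 scale (exact permutation p = 0.10, adjusted 0.20). The deposited gene bodies overlap by 212 bases on opposite strands, and the sources used here do not say whether strand was used in counting. Reads in those bases cannot be told apart without strand.

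**Figure D2:**
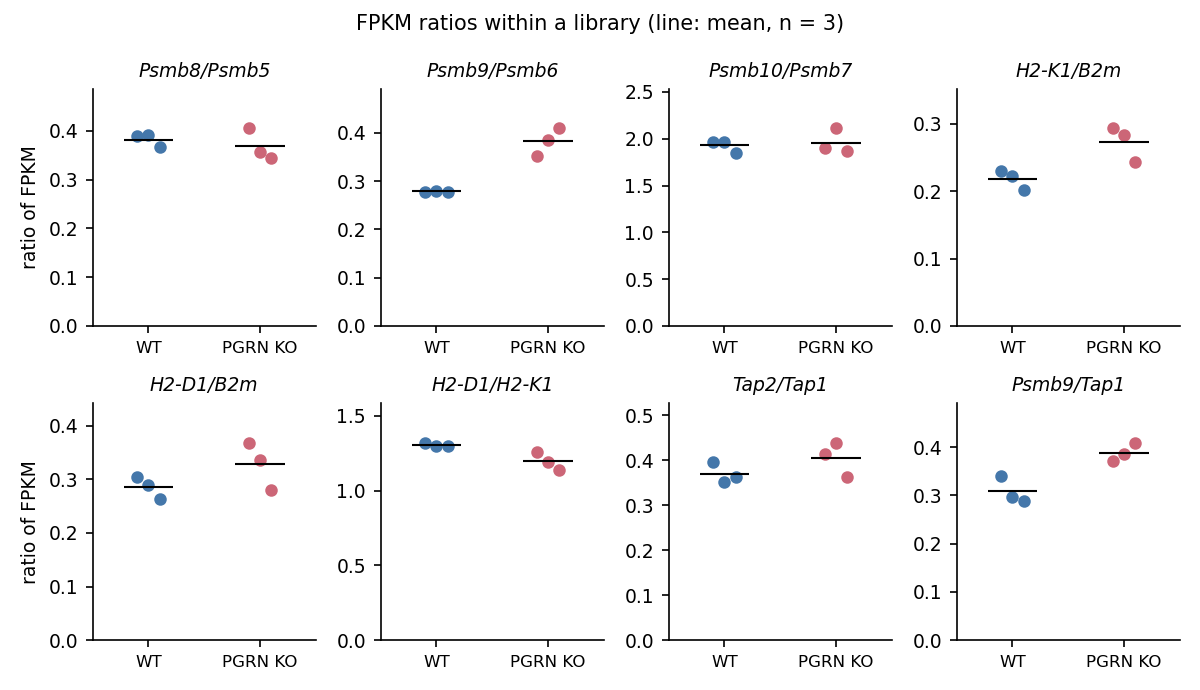
Ratios of FPKM within each library (vertical axes, starting at 0) for 8 pairs of genes in the 3 WT (blue) and 3 PGRN KO (red) libraries, with a line at each mean. The genotypes are apart for 4 ratios, Psmb9/Psmb6, H2-K1/B2m and Psmb9/Tap1 higher in PGRN KO and H2-D1/H2-K1 lower, and overlap for the other 4.

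Nlrc5 (ENSMUSG00000074151), the transactivator of class I genes, lies at chr8:94434356-94527272 on the plus strand. It had an FPKM of 14.7, 15.9 and 17.4 in WT and of 13.5, 12.5 and 13.0 in PGRN KO. All PGRN KO libraries were below all WT libraries, and the means of 15.97 ± 1.37 and 12.97 ± 0.518 (SD, n = 3 each) differed by -18.8%. The log2 fold change was -0.28 (SE 0.070, limma adjusted p = 0.0371). This was the least stable of the 3 calls, lost in 9 of 17 alternatives. Leaving out WT replicate 2 gave -0.28 (adjusted p = 0.11), WT replicate 3 -0.22 (0.0846), PGRN KO replicate 4 -0.31 (0.0619), replicate 5 -0.25 (0.126) and replicate 6 -0.28 (0.0886), and plain totals of fragments gave -0.17 (adjusted p = 0.132). A lincRNA, 9330175E14Rik, overlaps 748 bases of Nlrc5 on the opposite strand and held 1076 fragments over all libraries, beside 6891 in WT and 6130 in PGRN KO for Nlrc5.

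The levels and fold changes depended on the scaling of the libraries. Ratios within a library do not change with a common factor for each library. Quantile normalization does not cancel in them, and they were not computed under it. The totals that the authors divided by were smaller than the fragments on genes in WT (fragments on genes were 1.04 times that total on average) and larger in PGRN KO (0.954 times). Rescaling to plain totals of fragments moved tested genes averaging an FPKM of 10 or more up by 0.12 on the log2 scale, and quantile normalization moved them by 0.030. Under quantile normalization H2-K1, H2-D1 and Psmb9 were called higher and Nlrc5 lower, beside 7.73% and 9.44% of all tested genes. Under plain totals the same 3 genes were called higher and none lower, beside 14.5% and 6.31%. With limma voom on fragments recovered as FPKM times gene length, Tap2 joined these 3 genes (log2 fold change 0.25, adjusted p = 0.0182) and none was lower, beside 20.2% and 8.46%. Median-of-ratios scaling changed no call of the 10 genes, with log2 fold changes of 0.23 for H2-K1, 0.33 for Psmb9 and -0.28 for Nlrc5. Its factors were 0.9989 to 1.001, so the deposited values were already nearly on that scale and this setting could hardly change a call. H2-K1 and Psmb9 were called higher under the authors' scaling, quantile normalization, plain totals and voom.

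**Figure D3:**
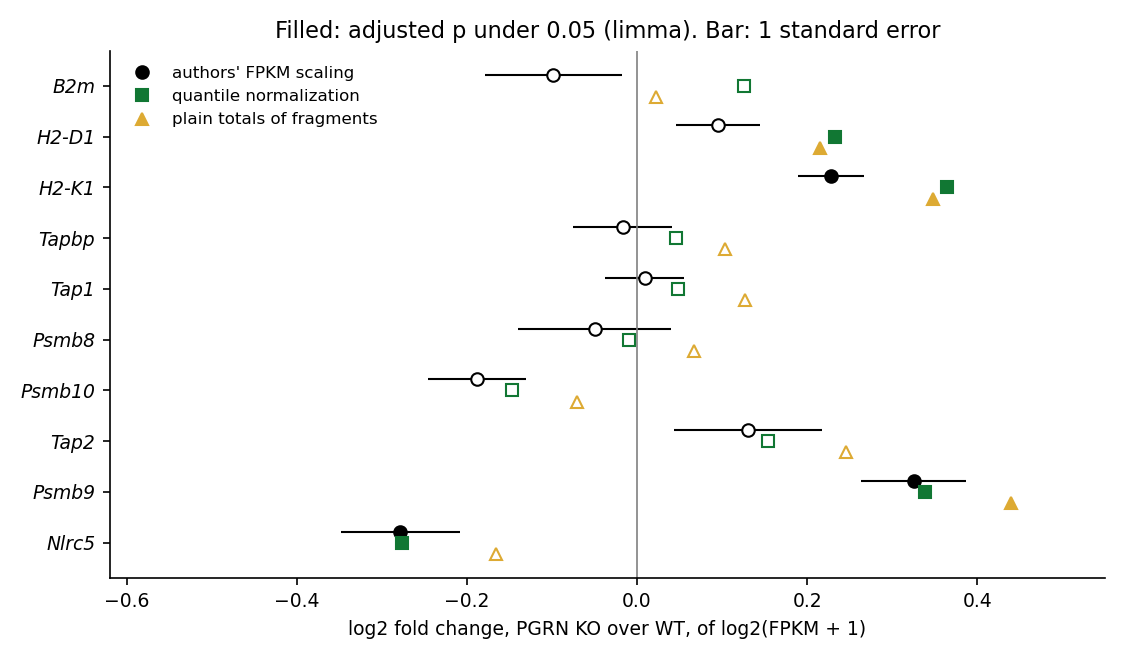
Log2 fold change of PGRN KO over WT on the log2(FPKM + 1) scale (horizontal axis) for the 10 genes under the authors' scaling (circles, bar of 1 standard error), quantile normalization (squares) and plain totals of fragments (triangles), filled where the adjusted p was under 0.05. H2-K1 and Psmb9 are filled on the right under all 3 scalings, while Nlrc5, at -0.28 in the circles, is open under plain totals.

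The spread between libraries differed among the genes. In WT the coefficient of variation ran from 2.53% for H2-K1 to 10.2% for Psmb8. In PGRN KO it ran from 0.927% for H2-K1 to 11.9% for Tap2, with 10.3% for B2m. The median over the 2781 genes with at least 1000 fragments on average was 3.90% in WT and 5.43% in PGRN KO. PGRN KO replicate 6 had 0.16 more B2m and 0.19 less Tap2 than the genotype mean on the log2 scale. PGRN KO replicate 4 lay on the other side for B2m, with 0.12 less, and had 0.13 more Psmb8. Replicate 6 was below the genotype mean for 7 of the 10 genes, and WT replicate 3 was below its own for 8.

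Other genes of the pathway, and the regulators, receptors and interferon-related genes listed with them, mostly did not pass the test. Those that did were mostly lower. Of 97 further genes in 9 lists, 85 were tested, of which 3 were called higher, 29 lower and 53 not called, with a median log2 fold change of -0.12 beside 0.0026 over all tested genes. By list, the median was -0.006 for other class I chains, 0.0007 for loading and editing, 0.0047 for proteasome partners and -0.0001 for cytosolic peptidases. It was -0.11 for regulators, -0.24 for interferon signalling, -0.29 for the 1 tested interferon gene, -0.28 for interferon-induced genes and -0.11 for receptors. Over all tested genes 7.94% were called higher and 9.95% lower, and over those averaging an FPKM of 10 or more 13.8% and 23.6%. Under plain totals of fragments the split was 10 higher and 18 lower, beside 14.5% and 6.31% of all tested genes, and under quantile normalization 4 and 24, beside 7.73% and 9.44%. Of the 29 lower calls, 18 held under both other scalings, as did all 3 higher calls, and none of the 32 changed sign.

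Among 14 tested other class I chains, 2 were higher and 4 lower under the authors' scaling, and 2 and 2 under plain totals. Of all tested genes, 7.94% were higher and 9.95% lower under the authors' scaling, and 14.5% and 6.31% under plain totals. Among tested genes averaging an FPKM of 10 or more, 13.8% were higher and 23.6% lower under the authors' scaling. The nonclassical chain H2-Q7 had an FPKM of 24.42, 23.04 and 25.11 in WT and of 37.1, 28.2 and 30.02 in PGRN KO (log2 fold change 0.37, limma adjusted p = 0.0477). H2-Q6 also rose, by 0.27 (adjusted p = 0.026). H2-T23, which encodes Qa-1 and presents leader peptides of other class I chains to NK cell receptors, had an FPKM of 169.9, 165.8 and 156.8 in WT and of 133.9, 139.9 and 131.2 in PGRN KO (log2 fold change -0.28, limma adjusted p = 0.00994, 0.0665 under plain totals). H2-Q10 fell by 0.60 (adjusted p = 0.00347) and H2-T24 by 0.36 (adjusted p = 0.00451), and H2-T22 had -0.16 (adjusted p = 0.0454), a call lost under quantile normalization and plain totals. These chains are near copies of each other and of H2-K1 and H2-D1, and reads could have been assigned among them.

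Of 11 tested loading and editing genes, 1 was higher and 3 lower under the authors' scaling, and 1 and 1 under plain totals. Under the authors' scaling 9.95% of all tested genes were lower, and 23.6% of those averaging an FPKM of 10 or more. Under plain totals, here and for the 2 lists below, 14.5% of all tested genes were higher and 6.31% lower. Sec61b, a subunit of the translocon, rose by 0.43 on the log2 scale (limma adjusted p = 0.00244). The chaperone Hspa5 had -0.37 (adjusted p = 0.00379), Sec61a1 -0.24 (adjusted p = 0.0316) and Calr, the calreticulin of the loading complex, -0.21 (adjusted p = 0.0219), of which Sec61a1 lost its call under plain totals (-0.13, adjusted p = 0.156) and Calr under both other scalings. Among the 7 tested proteasome partners, Psmb7 alone passed under the authors' scaling, while 2 others were called higher and none lower under plain totals. None of 6 cytosolic peptidases passed (1 was higher under plain totals), the most abundant being Npepps (-0.11, adjusted p = 0.277) and Tpp2 (-0.17, adjusted p = 0.183).

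Of 13 regulators, 3 were lower and none higher under the authors' scaling, and 3 were lower and 1 higher under plain totals, beside 9.95% and 6.31% of all tested genes lower. Under plain totals 14.5% of all tested genes were higher. Irf1, an interferon-induced activator of class I and immunoproteasome genes, had an FPKM of 31.5, 30.8 and 28.5 in WT and of 22.6, 23.6 and 24.4 in PGRN KO (log2 fold change -0.35, limma adjusted p = 0.00756). Irf8 had -0.39 (adjusted p = 0.0108). Ciita, the class II transactivator and relative of Nlrc5, named after its values were seen, had -0.50 (adjusted p = 0.00398) on 274 fragments in WT and 56 in PGRN KO. Its mean FPKM was 0.566 in WT and 0.105 in PGRN KO (-81.4%), and the log2(FPKM + 1) scale understates a change at such low values. Rfx5, the DNA-binding partner of Nlrc5, did not pass, at -0.070 (adjusted p = 0.738).

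Of 12 interferon signalling genes, 6 were lower and none higher under the authors' scaling, and 4 were lower and 1 higher under plain totals, where 9.95% and 6.31% of all tested genes were lower. The share of all tested genes called higher under plain totals was 14.5%. The 4 called lower under both, given here under the authors' scaling, were the kinases Jak1 (-0.41, limma adjusted p = 0.00565) and Jak2 (-0.39, adjusted p = 0.00916) and the type I receptor chains Ifnar1 (-0.33, adjusted p = 0.00452) and Ifnar2 (-0.29, adjusted p = 0.00697). Ifnb1 was near the detection limit, with 38 fragments in WT and 25 in PGRN KO (adjusted p = 0.329). Ifng was at 0 fragments in every library, which allows at most 0.139 FPKM in a library for counting error only, and Ifna4, Ifnl2 and Ifnl3 were at 0 with limits of 0.321, 0.256 and 0.309.

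Of 15 tested interferon-induced genes, 10 were lower and none higher under the authors' scaling, and 6 were lower and 1 higher under plain totals. Of all tested genes, 9.95% and 6.31% were lower under these scalings, and 23.6% of those averaging an FPKM of 10 or more under the authors' own. Plain totals had 14.5% of all tested genes higher. Mx1, an antiviral GTPase, had an FPKM of 22.5, 20.8 and 22.5 in WT and of 9.37, 10.3 and 12.3 in PGRN KO (log2 fold change -0.98, limma adjusted p = 0.00142). Ifit2 (-0.51, adjusted p = 0.0103), Gbp5 (-0.51, adjusted p = 0.00519) and Gbp3 (-0.40, adjusted p = 0.0132) were also lower. In a list of class I receptors and related genes, 6 were tested, and Lilrb4a (-0.65, adjusted p = 0.00529) and Pirb (-0.40, adjusted p = 0.00209) were lower, with 1 other gene higher under plain totals. Lilrb4a is an inhibitory receptor of the same family as Pirb and is not itself an established class I receptor. Pirb, a myeloid receptor that binds class I, had an FPKM of 113.5, 116.9 and 111.8 in WT and of 85.6, 83.8 and 89.8 in PGRN KO.

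**Figure D4:**
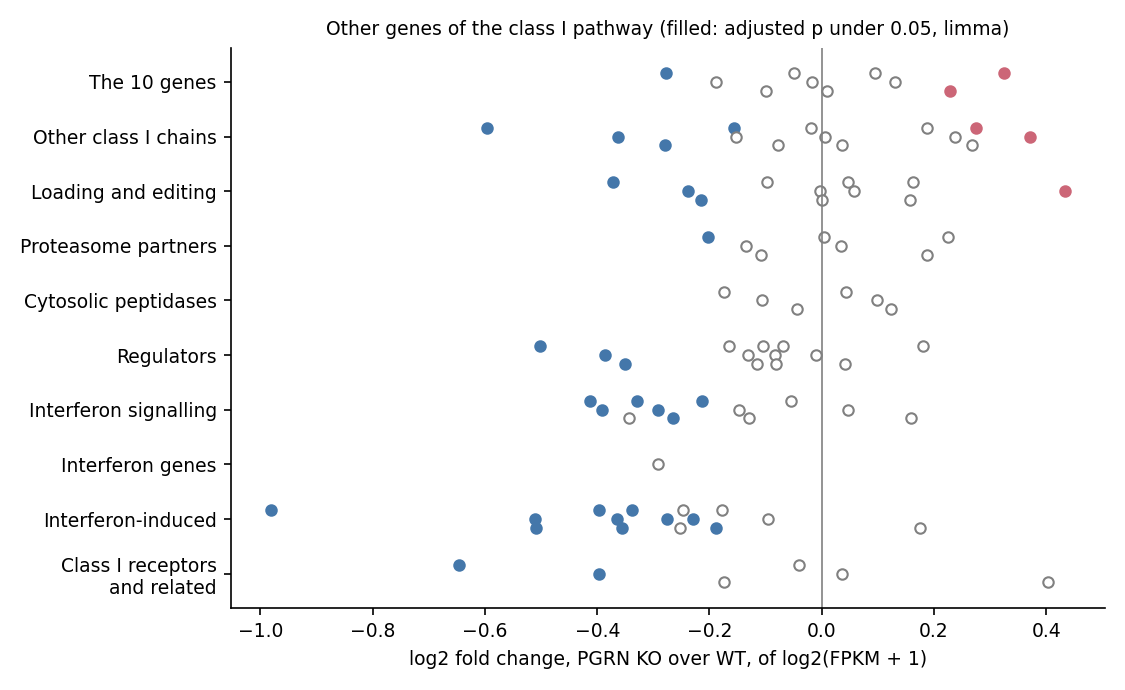
Log2 fold change of PGRN KO over WT on the log2(FPKM + 1) scale (horizontal axis) for the 10 genes and for the 9 lists of further genes. Each tested gene is 1 point, filled blue (lower) or red (higher) where the adjusted p was under 0.05. Filled points lie on both sides of 0 in the top 3 rows and, where any is filled, on the left alone from the proteasome partners down, with Mx1 at -0.98 farthest to the left.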

How the data were processed

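RNA was sequenced from 6 libraries, 3 WT (replicates 1 to 3) and 3 PGRN KO (replicates 4 to 6), grouped by title. The authors deposited 1 table of FPKM per gene, with coordinates and gene lengths. Per the labels, reads were aligned to mm10 (GRCm38) with HISAT2 2.0.5 and counted with featureCounts 1.5.0-p3, whereas the paper's methods name other tools, and the labels also list CASAVA and DESeq2 1.20.0. FPKM multiplied by gene length gave whole fragments for 100% of values within 0.05, with 17290604 to 17799798 fragments on genes in WT and 17087344 to 18821091 in PGRN KO. No replicate pair agreed within sampling noise (lowest chi-square per degree of freedom 2.71 over 6 pairs).

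The deposited FPKM values were transformed to log2(FPKM + 1), which understates changes of low genes, and genes with a mean of at least 0.1 were fitted with limma 3.58.1 (lmFit, eBayes with trend, R 4.3.3) with genotype as the only term. P-values were two-sided and adjusted by the Benjamini-Hochberg method over all 14807 genes, with a threshold of 0.05. Ratios within a library were compared by exact permutation (scipy 1.17.1). In simulated data, 97 of 200 changed genes were called, with 12 false calls (11% of calls). Alternatives were pseudocounts of 0.5 and 0.1, other filters, scalings and variance models, voom on the recovered fragments, and each library left out. Adjusted p-values in lists of genes are from the same limma fit.

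The genes, lists and tests were chosen with earlier results of these data known. Besides the 10 genes, Grn, Psmb5, Psmb6, Psmb7, Irf1 and Rfx5, the text names from each list up to 4 genes per direction with an adjusted p under 0.05 and a mean FPKM of at least 1, by size of change, or the 2 most abundant where none passed. Ciita, the 5 interferon genes and the cell markers are named outside this rule. Some genes are not reported here. The symbol Nrdc matched no row. Motifs were searched on both strands of RefSeq windows (GRCm38.p6).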

Additional observations from a re-analysis of the deposited data

How the results depend on the processing

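Among 17 alternatives, 6 of which left out 1 library, the number of the 10 genes called higher (2) was 4 with voom, and 0 to 3 when 1 library was left out. The number called lower (1) was 0 with no filter on low values, plain totals of fragments, eBayes without trend and voom, was 2 with genes averaging an FPKM of 1 or more and with protein-coding genes alone, and was 0 to 1 when 1 library was left out. The median log2 fold change of the 10 genes was 0.087 under quantile normalization, 0.115 under plain totals and 0.116 with voom. B2m changed sign under these 3 settings (0.13, 0.022 and 0.023), as did Tapbp (0.046, 0.10 and 0.10, and -0.051 to 0.039 leaving out 1 library). Psmb8 changed sign under plain totals (0.067) and voom (0.069) and ranged from -0.13 to 0.0048 leaving out 1 library, Tap1 from -0.015 to 0.042, and the log2 difference of Psmb10/Psmb7 from -0.031 to 0.054. Under plain totals, 10 of the further listed genes were called higher and 18 lower. H2-K1 ranged from 0.21 to 0.36 (adjusted p 2.76e-06 to 0.0568), Psmb9 from 0.27 to 0.46 (2.93e-05 to 0.0625) and Nlrc5 from -0.34 to -0.17 (0.0144 to 0.132). The cause of these shifts was not tested, beyond the scaling of the libraries shown above. No paired analysis was possible because the genotypes share no replicate numbers. With 3 libraries per genotype, no exact permutation p could fall below 0.10.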
